A study of Mus musculus with 7 samples.

Results

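The duodenum of vehicle-treated male mice is described here from its transcriptome, using the 4 vehicle libraries of a series of 7 and ranking 47069 annotated genes by their mean FPKM over those 4 libraries. FPKM is the number of fragments assigned to a gene, scaled to the length of its transcript and to the size of the library. The strain was C57BL/6, which the design text of the series writes as C57BL/6J. These mice were 8 to 12 weeks old and received 0.5% carboxymethylcellulose, the vehicle of a study in which the other 3 mice received the compound T09. Each library came from 1 mouse, and the RNA was polyadenylated RNA of duodenal tissue, with no sorting of cells named in the labels. The 3 libraries of the treated mice are not used here, so no value below is a response to treatment. Where 4 values follow each other they belong to vehicle replicates 1, 2, 3 and 4 in that order, and values after ± are the SD over these libraries (n = 4 mice).

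The duodenum is the first stretch of the small intestine, where chyme from the stomach meets bile and pancreatic juice. Enterocytes on its villi digest peptides and sugars at the brush border and take up fatty acids, monoglycerides, sterols, iron, calcium and vitamins. They rebuild triglyceride in the endoplasmic reticulum and export it in chylomicrons, lipoprotein particles built around apolipoprotein B. Goblet, Paneth, enteroendocrine and tuft cells are the secretory types of the same epithelium, which is renewed from stem cells at the base of the crypts.

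The libraries held 19007647, 18944222, 15395535 and 18351441 counts. Each had a count in 19014 to 19930 genes, and 16837 genes had one in all 4 libraries while 24379 had none in any. A mean of at least 1 FPKM was reached by 11946 genes, and 10982 of them were at 1 FPKM or more in every library. Levels of at least 100 FPKM were reached by 1232 genes and of at least 1000 FPKM by 84. The limit of 3 counts that a count of 0 allows corresponds to 0.158 to 0.195 CPM, a count scaled to the size of its library. The Y-linked gene Ddx3y had 273 to 661 counts per library and Xist, which is transcribed from the inactive X chromosome of females, had 1 to 15. The labels give all mice as male. Replicate 1 stood apart by transcripts of pancreatic acinar cells (0.180% of its summed FPKM, at most 0.0176% in the others) and by the lowest share of Paneth cell genes. Replicate 4 stood apart by adipocyte transcripts (0.0386%, at most 0.0122% in the others) and by the lowest share of T cell genes. For this reason, where leaving out 1 library moved a named gene's mean by over 1.5 times, the value in every library is given.

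All 5 genes used to mark the tissue as duodenal epithelium were high in every library. Fabp1, the liver-type fatty acid-binding protein, measured 4368, 4204, 4565 and 5074 FPKM and ranked 11 of all genes. Fabp2, its intestinal counterpart, measured 4262, 4862, 5172 and 4781 FPKM and ranked 9. Villin (Vil1), which bundles the actin of microvilli, measured 2583, 2568, 2594 and 2746 FPKM, ranked 28 and had a coefficient of variation (CV, the SD as a percentage of the mean) of only 3.15%. Apoa4, an apolipoprotein of chylomicrons, measured 4564, 3210.0, 4639 and 4301 FPKM, with replicate 2 below the other libraries. Lactase (Lct), the brush border enzyme that splits milk sugar, measured 642, 669, 591 and 794 FPKM and ranked 158. The marker genes of the distal small intestine lay at the other end of the scale. Fgf15, the ileal hormone that signals bile acid uptake to the liver, had 0 counts in all 4 libraries. The ileal bile acid-binding protein Fabp6 measured 0, 0.992, 0.136 and 0 FPKM, highest in replicate 2, and the ileal bile acid transporter Slc10a2 averaged 0.206 FPKM.

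The promoters of 5 abundant duodenal genes and of the neighbouring alkaline phosphatase genes Alpi and Akp3, which varied between the mice, are shown so that the letters before their starts can be read beside their levels. Of the genes looked at, those shown hold a motif match, and those without one are named after the sequences. Each line gives the 100 bases upstream of the RefSeq start on GRCm38.p6, 5′ to 3′ on the gene's strand, with matches to 5 short motifs in capitals. The TATA box was searched as TATAAA on the gene's strand only. On both strands, the motif of HNF1 was searched as GTTAAT, that of CDX factors as TTTATG, that of GATA factors as AGATAA and that of HNF4 as CAAAGT. HNF1, CDX, GATA and HNF4 factors are regulators of intestinal epithelial genes. The TATA box shares 5 letters with the reverse strand of the CDX motif (CATAAA), but no capitals below belong to both. For Rbp2, Fabp1 and Guca2b the RefSeq start lies inside the span that the deposited table gives the gene.
Rbp2 (chr9:98490437-98490536, plus strand): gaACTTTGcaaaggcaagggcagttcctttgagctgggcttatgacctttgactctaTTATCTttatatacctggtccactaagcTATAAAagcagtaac
Fabp1 (chr6:71199779-71199878, plus strand): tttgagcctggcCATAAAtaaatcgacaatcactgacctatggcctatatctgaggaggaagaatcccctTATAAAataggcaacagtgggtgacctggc
Guca2b (chr4:119658946-119659045, minus strand): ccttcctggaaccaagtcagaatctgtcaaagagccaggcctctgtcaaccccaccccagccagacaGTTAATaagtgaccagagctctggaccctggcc
Sis (chr3:72967864-72967963, minus strand): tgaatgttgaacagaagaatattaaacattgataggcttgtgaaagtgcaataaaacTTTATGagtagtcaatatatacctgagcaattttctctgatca
Lct (chr1:128328319-128328418, minus strand): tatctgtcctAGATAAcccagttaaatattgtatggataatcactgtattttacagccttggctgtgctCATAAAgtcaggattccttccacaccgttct
Alpi (chr1:87101607-87101706, minus strand): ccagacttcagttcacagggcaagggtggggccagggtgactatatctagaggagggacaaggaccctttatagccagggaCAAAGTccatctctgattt
Akp3 (chr1:87124854-87124953, plus strand): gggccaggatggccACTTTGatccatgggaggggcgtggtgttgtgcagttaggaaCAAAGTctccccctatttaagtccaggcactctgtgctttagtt
Fabp1 holds a TATA box whose first letter lies 30 bases before the start, and Rbp2 holds one 15 bases before it. A CDX match starts 88 bases before the start of Fabp1, 43 before that of Sis and 31 before that of Lct. A match to HNF1 starts 33 bases before Guca2b, and Akp3 has 2 matches to HNF4, 86 and 44 bases before its start, while Alpi has 1 at 19. Among the 100 genes of highest mean FPKM, 75 had a RefSeq entry with 93 promoters. Of these, 9 (9.68%) held TATAAA and 11 (11.8%) the HNF4 letters in this window. Over the 11671 promoters of genes at a mean of 1 FPKM or more the shares were 2.00% and 3.36%, and over all 32851 promoters 3.80% and 4.46%. The HNF1 letters stood in 4.30% of the promoters of the 100 genes, in 1.29% of those of the genes at 1 FPKM or more and in 2.51% of all. For CDX the 3 shares were 4.30%, 1.95% and 4.33%, and for GATA 4.30%, 1.89% and 3.59%. Each 4.30% stands for 4 promoters. Some genes have several promoters, so promoters are not independent, and no share was tested against another. A match of letters is not a measured binding site, and these libraries hold no binding data. No match to these 5 motifs stood in the same window of Apoa1, Apoa4, Fabp2, Lgals4, Anpep or Vil1.

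A small number of genes made up much of the transcriptome. The gene of highest mean level, Apoa1, held 2.01% of summed FPKM, the top 10 genes 10.02% ± 0.618 and the top 100 genes 32.5% ± 0.501. Of the top 10 share, 1.34% of summed FPKM was Gm23935, a locus of only 57 bases described below. The top 1000 genes held 70.3%, and 316 genes held 50%. Of the 20 genes that led by mean FPKM, 17 were among the top 20 of every library, and 79 genes were among the top 100 of every library. Protein-coding genes held 97.0% of summed FPKM.

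Apoa1, the structural apolipoprotein of high-density lipoprotein and a component of newly made chylomicrons, measured 14266, 13427, 16149.6 and 15233 FPKM and ranked first in each library. It lies on chromosome 9, 46228580 to 46230466 (GRCm38), beside Apoc3 (chromosome 9, 46232933 to 46235636) and Apoa4 (chromosome 9, 46240696 to 46243459), and all 3 genes of this cluster were among the top 20. Apoc3, an inhibitor of triglyceride lipolysis, measured 3005, 2596, 3579 and 3394 FPKM. Replicate 2 was the lowest library for each of these 3 genes. Sepp1 (selenoprotein P), a secreted carrier of selenium, ranked 4 at 6307 ± 848 FPKM. Rbp2, the retinol-binding protein of enterocytes that handles dietary vitamin A, measured 5659.6, 5879, 5930.2 and 5796 FPKM on chromosome 9, 98486115 to 98509781, with a CV of 2.03%, so that its 4 libraries were almost level. Fth1, the heavy chain of the iron store ferritin, measured 7837, 5570.4, 3719 and 4372 FPKM, high in replicate 1 and lowest in replicate 3. Actb (beta-actin) averaged 4724 ± 624 FPKM. Galectin 4 (Lgals4), a lectin of the enterocyte apical membrane, averaged 3863 ± 326 FPKM, and the small membrane protein Smim24 3544 ± 217 FPKM.

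Guca2b, which encodes uroguanylin, the peptide that activates guanylate cyclase C and so draws salt and water into the lumen, measured 3006, 3155, 4667 and 5451 FPKM, higher in replicates 3 and 4 than in replicates 1 and 2. Atp1b1, a beta subunit of the sodium-potassium ATPase, averaged 1956 ± 158 FPKM. Zg16, a lectin secreted by goblet cells, averaged 4233 ± 499.7 FPKM, and Anpep, aminopeptidase N of the brush border, 3575 ± 669 FPKM. The 3 mitochondrially encoded genes in the top 20 were mt-Co1 (11001 ± 2074 FPKM), mt-Cytb (5757 ± 959.7 FPKM) and mt-Nd1 (4531 ± 621 FPKM), all lowest in replicate 3. Gm23935, a locus of 57 bases annotated as a miRNA in GENCODE M21 (chromosome 16, 11144125 to 11144181), ranked 3 by FPKM with 9405 to 10317 counts per library. FPKM divides by length, so a locus this short takes a large value from counts that give a longer gene a far lower one. Dbi, described below, had 9479 to 12054 counts per library and averaged 1187 FPKM. The FPKM of Gm23935 is therefore not read as that of an abundant transcript here. By share of counts, which does not divide by length, mt-Co1 led with 1.70%, followed by Apoa1 with 1.21% and Apoa4 with 0.758%. Levels also depend on the length used. With the gene length listed in the deposited table in place of the one its FPKM implies, 90 of the 242 genes named here moved by over 1.5 times, all to lower values. Sepp1 then stood at 2957 FPKM (rank 14), Actb at 2155 FPKM (rank 24) and Anpep at 1516 FPKM (rank 33), while Vdr and Abcc2, described below, stood at 106 FPKM and 103 FPKM in place of 395 FPKM and 356 FPKM. A gene's CV over the libraries is the same with either length.

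**Figure D1:**
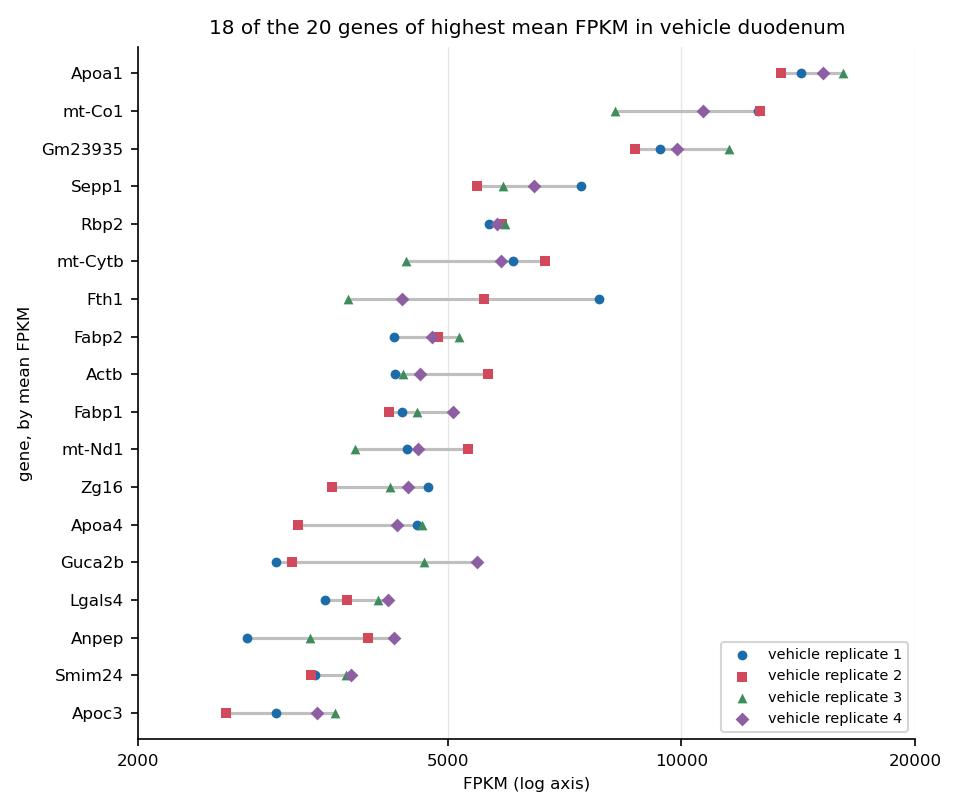
FPKM of 18 of the 20 genes of highest mean in each of the 4 vehicle libraries, on a log axis; each symbol is 1 mouse and the grey line spans the 4 values. Rbp2 was nearly level over the libraries (CV 2.03%), while Fth1 spread most (CV 33.7%).

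Absorptive genes, 86 in 6 lists of which 85 were matched, held 8.75% ± 0.306 of summed FPKM. Here and below, lists and classes may share genes, so their shares cannot be added. As in any bulk tissue, fewer cells of a type and less RNA per cell cannot be told apart in such a share. Of the 20 brush border enzymes listed, 19 were matched, and all 19 were at 1 FPKM or more in every library. Besides Anpep, they were led by Alpi (intestinal alkaline phosphatase) at 2296, 1795, 1099 and 1157 FPKM, Ggt1 (gamma-glutamyl transferase) at 1248 ± 51.6 FPKM, Sis (sucrase-isomaltase) at 1022 ± 110.1 FPKM and Mgam (maltase-glucoamylase) at 807 ± 58.2 FPKM. Akp3, a second intestinal alkaline phosphatase, measured 2555, 1133, 159 and 110.4 FPKM, highest in replicate 1 and far lower in replicates 3 and 4. Akp3 and Alpi are neighbours on chromosome 1, at 87124973 to 87127912 and 87098002 to 87101606, and both were highest in replicate 1. Lct, by contrast, was highest in replicate 4.

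The transporters of sugars and amino acids were all expressed, with all 14 listed genes at 1 FPKM or more in every library and a median CV of 10.1% over the 13 genes at a mean of 5 FPKM or more. The sodium-glucose cotransporter Slc5a1 (SGLT1) measured 1073, 1286, 1120.0 and 1108 FPKM. The basolateral glucose transporter Slc2a2 (GLUT2) averaged 324 ± 36.0 FPKM and the fructose transporter Slc2a5 (GLUT5) 266 ± 7.20 FPKM. Slc6a19, the main carrier of neutral amino acids, averaged 490.3 ± 28.6 FPKM, and Slc3a2, the heavy chain shared by several amino acid exchangers, 609 ± 124 FPKM. The 4 mice lay closest for Slc2a5, with a CV of 2.70%.

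Microvillus genes other than Actb and Vil1 were led by the membrane linker Ezr (ezrin, 905 ± 82.6 FPKM), the actin bundler Pls1 (779 ± 81.9 FPKM), the intermicrovillar protocadherin Cdhr5 (715 ± 50.6 FPKM) and the motor Myo1a (533 ± 36.0 FPKM). The list as a whole held 1.59% ± 0.0906 of summed FPKM.

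The genes of iron, calcium and vitamin uptake held genes that were level and genes that were not. Slc46a1, the proton-coupled folate transporter, averaged 443 ± 77.5 FPKM, the zinc importer Slc39a4 181 ± 34.7 FPKM, the cobalamin receptor subunit Amn 171 ± 55.4 FPKM and the vitamin D receptor Vdr 395 ± 93.2 FPKM. S100g, the calcium-binding protein calbindin-D9k that vitamin D induces, measured 452, 95.0, 39.4 and 50.0 FPKM. The following 5 genes were chosen after their values were seen. Slc40a1 (ferroportin), the basolateral iron exporter, measured 71.1, 16.6, 7.52 and 6.13 FPKM. Cybrd1, the duodenal ferric reductase, measured 2.40, 0.672, 0.219 and 0.225 FPKM and the calcium channel Trpv6 1.67, 0.0373, 0 and 0 FPKM. Each of these 4 genes was highest in replicate 1 and low in replicates 3 and 4. The apical iron importer Slc11a2 (DMT1) measured 63.1, 84.5, 54.0 and 58.8 FPKM and the ferroxidase Heph 99.8, 97.1, 69.8 and 80.1 FPKM, a much narrower range. Replicate 1 was also the library with acinar transcripts and the lowest Paneth share, and the part of either in these values was not tested.

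Among the further ion transport genes, Slc26a6, an exchanger of chloride for bicarbonate and oxalate, measured 416, 288, 246 and 285 FPKM, with replicate 1 above the others. The membrane carbonic anhydrase Car4 measured 134, 196, 216 and 143 FPKM. Guca2a, which encodes guanylin, averaged 122 ± 26.0 FPKM, and Gucy2c, the guanylate cyclase C that guanylin and uroguanylin activate, 109 ± 11.9 FPKM, both far below Guca2b. The following 2 genes were chosen after their values were seen. The sodium-proton exchanger Slc9a3 (NHE3) averaged 74.8 ± 23.8 FPKM and the chloride channel Cftr 12.5 ± 1.65 FPKM.

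Lipid-handling genes, 142 in 8 lists, held 7.35% ± 0.289 of summed FPKM, and 131 of them reached a mean of 1 FPKM. Their median CV was 10.8% over the 122 genes at 5 FPKM or more. Over all genes the median CV was 12.6% between 5 and 20 FPKM and 10.6% between 20 and 100 FPKM. The lists are described in the order in which a fatty acid passes through the cell.

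Fatty acid uptake and binding was led by Fabp2 and Fabp1, followed by the acyl-CoA-binding protein Dbi (1187 ± 101 FPKM), the fatty acid transport protein Slc27a4 (707 ± 53.3 FPKM) and the acyl-CoA synthetase Acsl5 (612 ± 47.7 FPKM). The scavenger receptor Cd36, a fatty acid receptor of enterocytes chosen here after its value was seen, measured 63.6, 57.9, 46.4 and 55.7 FPKM and so lay far below the binding proteins. For triglyceride resynthesis, the final acyltransferase Dgat1 measured 1213, 1236, 1268 and 1480.1 FPKM, and Mogat2, the monoacylglycerol acyltransferase that begins the intestinal route, 553, 541, 597 and 626 FPKM. Dgat2, the second enzyme of the last step, averaged 351 ± 54.7 FPKM, and the carboxylesterase Ces2e 561 ± 46.7 FPKM. Plin3, a coat protein of nascent lipid droplets, averaged 311 ± 29.1 FPKM. Dgat1 exceeded Dgat2 in each library.

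Chylomicron assembly took the largest share of the lipid lists, 4.32%, 3.83%, 4.48% and 4.27%, of which Apoa1 alone made up 47.5%. Apoc2, the activator of lipoprotein lipase, averaged 2360.3 ± 315 FPKM. Mttp, the transfer protein that loads lipid on to apolipoprotein B, measured 969, 1027, 828.7 and 890.5 FPKM, and its obligate partner P4hb, protein disulphide isomerase, averaged 1952 ± 69.7 FPKM. Apob itself, named with Sar1b after its value was seen, measured 343, 314, 275 and 337 FPKM. Sar1b, the GTPase of the coated vesicles that carry chylomicrons out of the endoplasmic reticulum, measured 538, 575, 597 and 502 FPKM. Of the 18 genes of this list, 17 reached 1 FPKM in the mean and none had a CV over 50% at a mean of 5 FPKM or more.

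Sterol handling was expressed at a lower level, 0.201% ± 0.0113 of summed FPKM over 16 genes. Npc1l1, the uptake transporter for dietary and biliary cholesterol, measured 307, 271, 306 and 389 FPKM. Abcg5 and Abcg8, which form the heterodimer that returns sterols to the lumen, averaged 402 ± 19.5 FPKM and 192 ± 18.3 FPKM. Soat2, which esterifies cholesterol for chylomicrons, averaged 199 ± 15.6 FPKM. The oxysterol receptor Nr1h2 (LXR beta) averaged 107 ± 10.1 FPKM, and Nr1h3 (LXR alpha), chosen after its value was seen, 45.3 ± 7.73 FPKM. Nr1h2 was above Nr1h3 in every library. The export pump Abca1, likewise chosen after its value was seen, averaged 16.6 ± 3.89 FPKM.

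Cholesterol synthesis genes were modest, with a median mean level of 23.9 FPKM over 22 genes and 0.0888% ± 0.00529 of summed FPKM. The leading members were Sc5d (72.7 ± 4.47 FPKM) and Ebp (64.8 ± 8.29 FPKM), which act late in the pathway, and the sterol sensors Insig1 (60.7 ± 9.17 FPKM) and Insig2 (54.3 ± 5.63 FPKM).

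Among genes of fatty acid synthesis and desaturation, the phospholipid acyltransferase Lpcat3 averaged 323 ± 16.4 FPKM, the citrate carrier Slc25a1 207 ± 25.4 FPKM and the lipogenic transcription factor Srebf1 100.2 ± 17.9 FPKM. The elongases Elovl1 and Elovl6 averaged 89.3 ± 5.08 FPKM and 49.8 ± 14.4 FPKM. Scd1, the main stearoyl-CoA desaturase, measured 1.59, 2.98, 11.04 and 105 FPKM, and Fasn, the fatty acid synthase, chosen after its values were seen, 6.69, 10.2, 17.3 and 72.6 FPKM. Both were highest in replicate 4 and lowest in replicate 1, and their means rest on replicate 4. Adiponectin (Adipoq), a hormone made by fat cells, measured 0.230, 0.864, 2.198 and 28.5 FPKM in the same libraries, and the part of fat cells in the Scd1 and Fasn values was not tested. Of the 19 genes of this list, 12 were highest in replicate 4, against 23.2% of all 8106 genes at a mean of 5 FPKM or more.

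Fatty acid oxidation was expressed throughout, with all 24 listed genes at 1 FPKM or more in every library. The mitochondrial dehydrogenases Hadh and Acadm averaged 348 ± 14.3 FPKM and 234 ± 11.2 FPKM. Bile acid handling was represented by the efflux pump Abcc2 (356 ± 27.5 FPKM) and by Slc51a and Slc51b (169.8 ± 20.9 FPKM and 74.3 ± 14.0 FPKM), subunits of the basolateral organic solute transporter. The bile acid receptor Nr1h4 (FXR) averaged 14.2 ± 3.19 FPKM, while Fgf15, Fabp6 and Slc10a2 stood at or near 0 as given above.

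**Figure D2:**
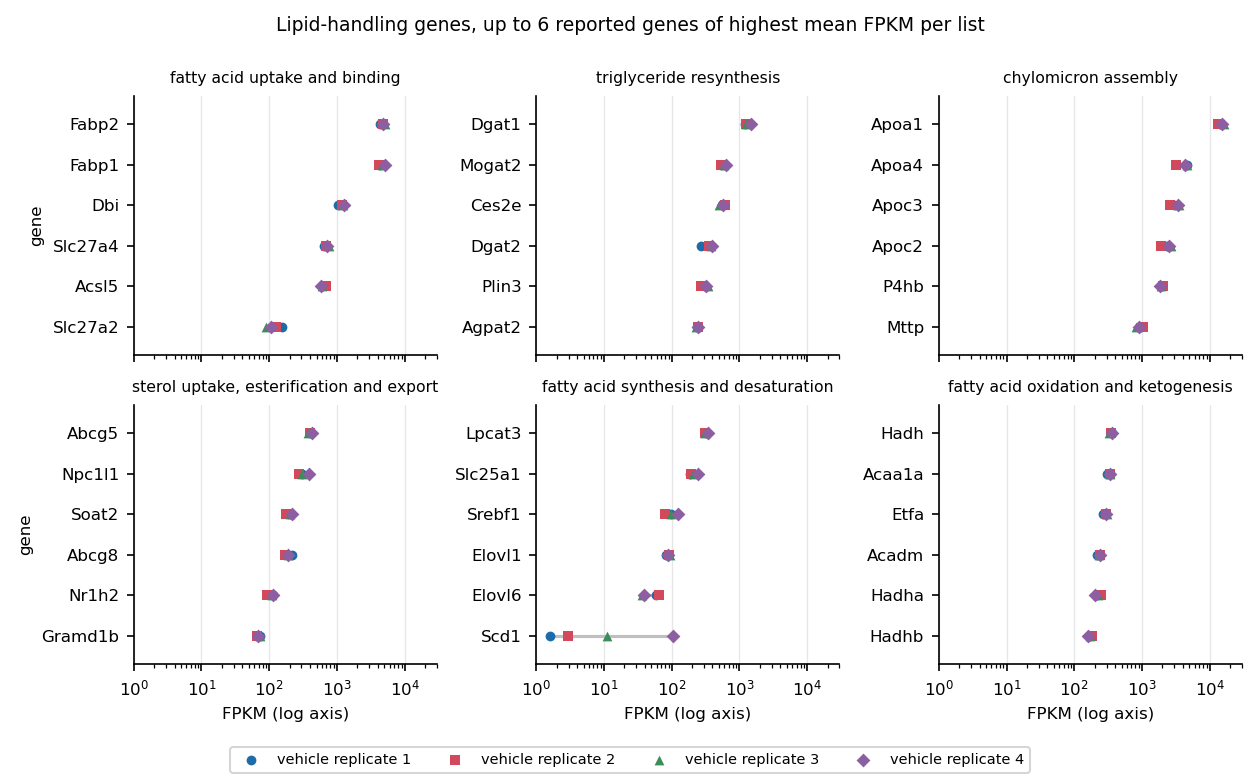
FPKM, on a log axis, of up to 6 of the genes of highest mean among those reported in each of 6 lipid-handling lists; each symbol is 1 vehicle library and the grey line spans the 4. Of the genes drawn, Scd1 spread most, with 1.59, 2.98, 11.04 and 105 FPKM in replicates 1 to 4.

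Secretory genes, 85 in 5 lists of which 83 were matched, held 1.99% ± 0.272 of summed FPKM, and 1.25% as a share of counts. The goblet list made up 1.37%, 1.11%, 1.30% and 1.35%, mostly Zg16 and Tff3, the trefoil peptide that protects the epithelium, at 2402, 1840.1, 2335 and 2386 FPKM. Fcgbp, a protein that binds to mucus, averaged 787 ± 126 FPKM, the gel-forming mucin Muc2 478 ± 109.8 FPKM, the mucus protease Clca1 545 ± 125 FPKM and the Kazal-type inhibitor Spink4 479 ± 119 FPKM. The goblet share was lowest in replicate 2 and close to level in the others.

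The Paneth list spread far more. It held 0.209%, 0.752%, 0.945% and 0.789% of summed FPKM, low in replicate 1, and 16 of its 18 matched genes were lowest in that library, against 32.0% of all genes at 5 FPKM or more. Defa24, one of the alpha-defensins that Paneth cells secrete into the crypt, measured 707, 2685, 3359.6 and 3076 FPKM, and lysozyme 1 (Lyz1) 151, 634, 839.9 and 509.6 FPKM. The defensin gene AY761184 measured 139, 663, 792 and 611 FPKM, Defa23 84.1, 337, 570.0 and 397 FPKM and the intelectin Itln1 104, 339, 472 and 388 FPKM. Replicate 1 was below the other 3 libraries for each of them. Ang5, a defining member of the list, had 0 counts in every library, and the antimicrobial ribonuclease Ang4, chosen after its value was seen, measured 13.1, 78.3, 107 and 70.1 FPKM. The alpha-defensins are near-identical copies, and the counting of reads shared by several genes is not stated in the labels, so their single values are uncertain.

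Enteroendocrine hormones held 0.0636% ± 0.0123 of summed FPKM and were led by Gip, the incretin of the proximal gut, at 196, 175, 186 and 120.1 FPKM. Somatostatin (Sst) averaged 66.9 ± 17.3 FPKM, cholecystokinin (Cck) 63.1 ± 17.3 FPKM and secretin (Sct) 52.6 ± 11.3 FPKM. The granule proteins Chgb and Chga averaged 35.3 ± 7.03 FPKM and 29.2 ± 2.26 FPKM. Replicate 4 had the lowest value in 12 of the 21 matched genes, against 27.2% of all genes at 5 FPKM or more. Only 10 of these 21 genes reached a mean of 5 FPKM. Tuft cell genes summed to only 0.00786% ± 0.00127, with the leading members Sh2d6 at 18.2 ± 3.85 FPKM and the taste channel Trpm5 at 7.11 ± 0.955 FPKM. The tuft cell kinase Dclk1 averaged 2.34 ± 0.383 FPKM and the tuft cell transcription factor Pou2f3 0.756 ± 0.155 FPKM.

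Brunner glands, the mucous glands under the proximal duodenum, and the stomach were hardly represented. Of 15 listed genes, 4 reached a mean of 1 FPKM and 5 had no count, namely Muc5ac, Gkn2, Tff1, Lipf and Bpifb1. Muc6, the mucin of Brunner glands, averaged 0.0452 FPKM. Tff2, the trefoil peptide of the same glands, measured 5.86, 0, 0 and 0.0933 FPKM and so was detected mainly in replicate 1. Pdx1, the transcription factor of the proximal duodenum and pancreas, measured 17.8, 12.0, 5.12 and 5.38 FPKM, with a higher level in replicates 1 and 2.

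Antimicrobial and barrier genes held 1.176% ± 0.225 of summed FPKM. Pigr, the receptor that carries immunoglobulin A to the lumen, measured 3286, 2894, 2214 and 2049 FPKM. Reg1, a secreted lectin of the regenerating family, measured 2513, 2419.8, 771 and 939.6 FPKM, and so was higher in replicates 1 and 2 than in replicates 3 and 4. Reg3b, a lectin that binds bacteria, averaged 837 ± 58.3 FPKM, and Lypd8, which keeps flagellated bacteria from the colonic epithelium, 901 ± 106 FPKM. The membrane mucins Muc13 and Muc3 averaged 883 ± 80.2 FPKM and 747 ± 220.1 FPKM.

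Of the crypt genes, the stem cell list held 0.0304% ± 0.00511 of summed FPKM. Olfm4, a secreted protein of stem cells, measured 35.1, 78.0, 67.3 and 47.9 FPKM, whereas Lgr5, their receptor for R-spondin, averaged 1.08 ± 0.482 FPKM and Ascl2, a Wnt-driven transcription factor, 2.21 ± 0.953 FPKM. Proliferation genes held 0.0467%, 0.0737%, 0.0715% and 0.0571%, and replicate 1 was the lowest library in all 23, against 32.0% of all genes at 5 FPKM or more. The replication clamp Pcna averaged 118 ± 8.61 FPKM, the tubulin regulator Stmn1 63.0 ± 16.3 FPKM, the chromatin protein Hmgb2 39.3 ± 11.5 FPKM and topoisomerase Top2a 23.9 ± 6.84 FPKM. Paneth, proliferation and, as described below, ribosomal protein lists were thus all lowest in replicate 1, and whether they share a source was not tested.

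Among transcription factors of epithelial identity, Vdr and Hnf4a led by deposited FPKM, Vdr at 395 ± 93.2 FPKM. Hnf4a, a nuclear receptor that maintains enterocyte genes, measured 363, 349.7, 357 and 347 FPKM with a CV of 2.10%. Its paralog Hnf4g averaged 135 ± 23.2 FPKM, the differentiation factors Klf4 and Elf3 268 ± 32.9 FPKM and 152 ± 32.8 FPKM, and Gata4, which sets jejunal and duodenal against ileal identity, 129.8 ± 7.04 FPKM. Cdx2, the homeobox factor of intestinal fate, averaged 102 ± 11.9 FPKM and was chosen after its value was seen.

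The wall of the gut was a minor part of these libraries. Its 5 lists, 86 genes, held 0.251%, 0.186%, 0.273% and 0.297% of summed FPKM, most of it smooth muscle. Myl9, the regulatory light chain of smooth muscle myosin, measured 295, 206, 371 and 399 FPKM, and desmin (Des) 124, 96.4, 171 and 199.6 FPKM. Enteric gamma-actin (Actg2) averaged 147 ± 35.8 FPKM, Acta2 144 ± 26.0 FPKM, Tagln 132 ± 42.1 FPKM, tropomyosin Tpm1 322 ± 23.6 FPKM and the myosin heavy chain Myh11 42.8 ± 9.45 FPKM. Replicate 2 was lowest for each of these genes.

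Fibroblast and matrix genes held 0.0212% ± 0.00577 of summed FPKM, led by the matrix protein Sparc (33.6 ± 14.3 FPKM) and the collagens Col3a1 (21.2 ± 5.39 FPKM) and Col1a1 (14.3 ± 3.40 FPKM). Enteric neurons and glia held 0.00320% ± 0.000648, with the neuronal hydrolase Uchl1 at 5.91 ± 1.19 FPKM and the glial marker S100b at 0.286 ± 0.0912 FPKM. Endothelial genes held 0.00271% ± 0.000519, with Plvap at 4.61 ± 1.47 FPKM, the lymphatic receptor Lyve1 at 2.17 ± 0.408 FPKM and Pecam1 at 1.57 ± 0.341 FPKM. Of the pacemaker cells of Cajal, Kit averaged 3.25 ± 0.240 FPKM and the chloride channel Ano1 2.51 ± 1.22 FPKM.

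Immune genes, 116 in 6 lists of which 114 were matched, held 1.08%, 0.932%, 1.15% and 0.489% of summed FPKM, with replicate 4 below the other libraries. T cell and intraepithelial lymphocyte genes held 0.0814%, 0.0676%, 0.0971% and 0.0209%, and replicate 4 was the lowest library in 23 of 25 genes, against 27.2% of all genes at 5 FPKM or more. Gzma, a granzyme of cytotoxic lymphocytes, measured 239.8, 194, 329 and 66.0 FPKM, the chemokine Ccl5 94.3, 98.1, 109.6 and 24.4 FPKM and Gzmb 57.2, 37.7, 64.7 and 11.8 FPKM. The CD3 chain genes of the T cell receptor complex measured 34.7, 28.0, 44.9 and 9.84 FPKM (Cd3g) and 8.72, 6.95, 10.9 and 1.78 FPKM (Cd3e). Cd8a measured 14.6, 13.6, 18.1 and 4.63 FPKM and Cd4, chosen after its value was seen, 2.68, 0.965, 1.53 and 0.415 FPKM. Replicate 4 was lowest for all 4 of these genes, and Cd8a was above Cd4 in every library.

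MHC class II genes held 0.418%, 0.496%, 0.740% and 0.236%, likewise highest in replicate 3 and lowest in replicate 4. H2-Ab1, a beta chain of the class II molecule, measured 1300.0, 1627, 2894 and 946 FPKM, its invariant chain Cd74 771, 851, 1084 and 351 FPKM and the alpha chain H2-Aa 459, 624, 819 and 181 FPKM. Replicate 3 was highest and replicate 4 lowest for all 3. Ciita, the transactivator of these genes, measured 2.99, 3.43, 3.68 and 1.34 FPKM with the same highest and lowest library and was chosen after its value was seen. Class II genes are expressed by enterocytes of the mouse small intestine as well as by dendritic cells, macrophages and B cells, and their source here was not tested.

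Immunoglobulin genes made up most of the B and plasma cell list, 0.473%, 0.264%, 0.197% and 0.136%. The kappa constant region Igkc measured 1796, 846, 686 and 414 FPKM, the alpha heavy chain constant region Igha 1079, 591, 454 and 304 FPKM and the joining chain Jchain, which links antibody subunits, 189, 109, 71.4 and 42.0 FPKM. All 3 were highest in replicate 1 and lowest in replicate 4. The B cell surface marker Ms4a1 (CD20), chosen after its value was seen, was near 0 in every library, at 0, 0.0366, 0 and 0.0189 FPKM. Cd79a, a part of the B cell receptor, measured 3.14, 0.652, 0.624 and 0.898 FPKM. Reads shared between immunoglobulin segments make single segments uncertain.

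Macrophage and dendritic cell genes held 0.0285% ± 0.00539, with the protease Ctss at 132 ± 10.5 FPKM, complement C1qa at 18.9 ± 7.81 FPKM and Lyz2 at 14.1 ± 3.89 FPKM. The list summed to 209 FPKM in the mean, so Ctss alone made up most of its share. Replicate 1 was the highest library in 15 of the 20 matched genes, against 26.1% of all genes at 5 FPKM or more. Replicate 4 was the lowest in 12 of them, against 27.2%. The median CV was 42.2% over the 6 genes of this list at a mean of 5 FPKM or more. The macrophage receptors Csf1r and Adgre1 averaged 2.42 ± 1.19 FPKM and 0.644 ± 0.371 FPKM, and Cd68 2.18 ± 0.744 FPKM. Mast cell, eosinophil and neutrophil genes summed to 0.000849% ± 0.000275, and 5 of 18 had no count, namely Ms4a2, Epx, Ly6g, Elane and Mpo. Interferon response genes were led by Irf7 at 175 ± 21.8 FPKM, Oasl2 at 94.5 ± 6.70 FPKM and Isg15 at 59.0 ± 10.1 FPKM. Of the 22 genes listed, 20 were at 1 FPKM or more in every library. The 16 genes at a mean of 5 FPKM or more had a median CV of 17.2%, and none had a CV over 50%. Replicate 4 was the lowest library in 13 of the 22, against 27.2% of all genes at 5 FPKM or more.

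**Figure D3:**
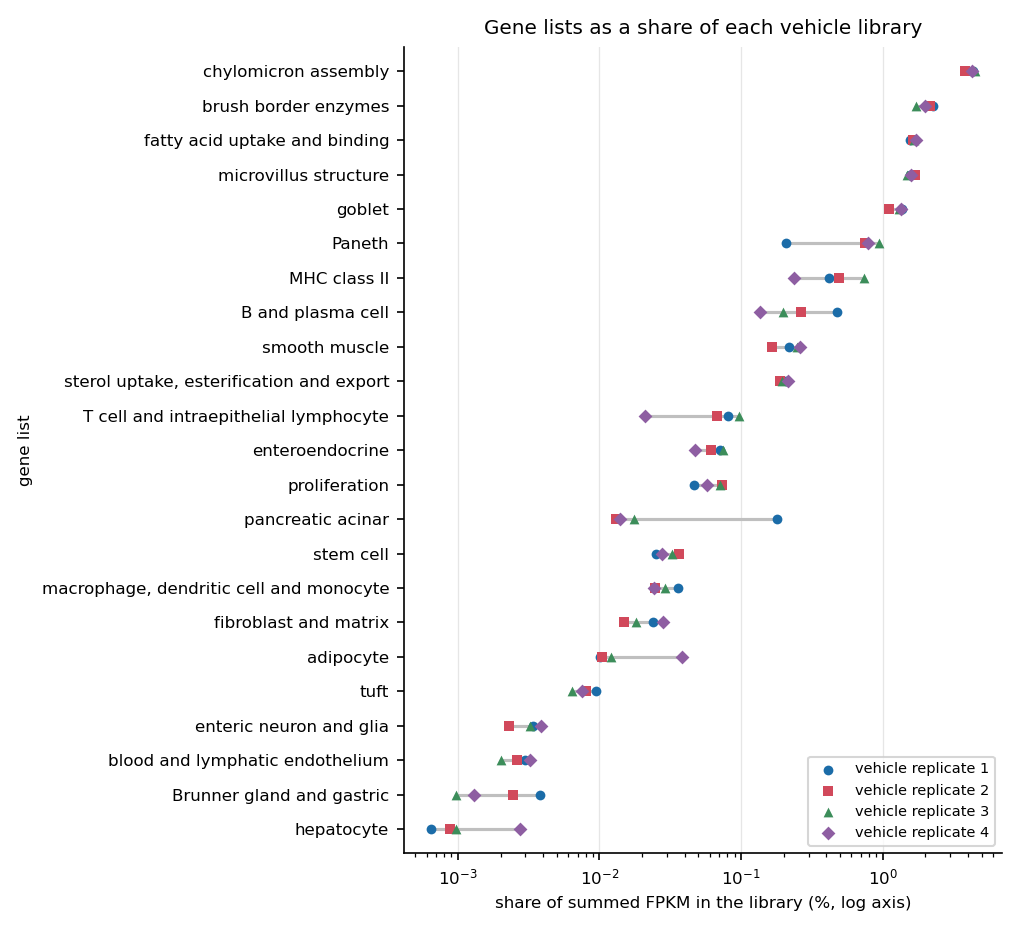
Share of summed FPKM in each vehicle library for 23 gene lists, on a log axis; each symbol is 1 library and the grey line spans the 4. The lists run over several orders of magnitude, with chylomicron assembly at 4.22% ± 0.279 and blood and lymphatic endothelium at 0.00271% ± 0.000519.

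Genes of neighbouring tissues were looked for in the same way, leaving out of the sums any gene that another list holds. Pancreatic acinar genes held 0.180%, 0.0130%, 0.0176% and 0.0140% of summed FPKM over 24 genes. Chymotrypsinogen (Ctrb1) measured 298, 0.179, 0.0732 and 0.246 FPKM, the elastase Cela2a 114, 0, 0 and 0.0720 FPKM and the lipase Pnlip 87.3, 0, 0 and 0.0367 FPKM. These digestive enzymes were thus found almost wholly in replicate 1, which was the highest library in 23 of the 25 listed genes, against 26.1% of all genes at 5 FPKM or more. Colipase (Clps) was different, at 106, 55.1, 82.9 and 60.9 FPKM, and so was found in all 4 libraries. It was 1 of 5 genes among the 25 that were at 1 FPKM or more in every library. The trypsinogen Prss1 had no count, while Prss2 measured 85.6, 0, 0 and 0.134 FPKM. In the other 3 libraries, Pnlip, Prss2, Cpa1 and Cela2a were each at 0 in at least 1, so that their means rest on replicate 1.

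Adipocyte genes showed the same kind of pattern in another library, 0.0100%, 0.0104%, 0.0122% and 0.0386% over 13 genes. The list summed to 72.0, 75.8, 91.3 and 286 FPKM. In replicates 1 to 3, most of each sum came from members other than Cfd, Car3, Fabp4, Plin1 and Adipoq. The shares thus understate how far these named genes differed between the libraries. The fat cell protease Cfd (adipsin) measured 1.08, 5.26, 8.16 and 77.0 FPKM, the carbonic anhydrase Car3 1.38, 5.43, 8.24 and 67.3 FPKM and the lipid-binding protein Fabp4 0.841, 2.22, 3.83 and 28.4 FPKM. Perilipin 1 (Plin1), the lipid droplet coat of fat cells and a marker of that list, measured 0.219, 0.548, 1.53 and 17.3 FPKM. Each was highest in replicate 4 and lowest in replicate 1, in the same order over the libraries as Scd1 and Fasn. Cidec and Pparg, which the list also holds, are expressed by enterocytes as well, and Cidec averaged 158 ± 24.0 FPKM.

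Of 16 listed hepatocyte genes, 6 had no count (Fgb, Fga, Fgg, Ahsg, Mup3 and Mup20) and 6 reached a mean of 1 FPKM. Albumin (Alb) averaged 0.273 ± 0.111 FPKM. Apart from Cyp3a11, which enterocytes also express and which is described below, the leading member was Cyp2e1, a cytochrome P450, at 0.346, 1.42, 1.60 and 9.48 FPKM. Haptoglobin (Hp), the carrier of free haemoglobin, measured 0.0392, 0.472, 0.242 and 5.11 FPKM. Both were highest in replicate 4, and the list without Cyp3a11 held 0.000644%, 0.000879%, 0.000974% and 0.00274% of summed FPKM, highest in that library. Replicate 4 was also the library with adipocyte transcripts, whose part in these values was not tested. The haemoglobin gene Hbb-bs measured 16.1, 2.83, 3.37 and 6.98 FPKM, highest in replicate 1. Of genes of the ileum and colon, Osr2, a transcription factor, measured 1.04, 5.61, 14.7 and 13.1 FPKM, lowest in replicate 1, and the water channel Aqp8 averaged 5.33 ± 3.73 FPKM. Of the lymphoid follicle genes, the chemokine Ccl20 measured 3.76, 26.8, 4.90 and 3.02 FPKM, so that its mean rests on replicate 2, and Cr2, a receptor of follicular cells, had no count.

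Detoxification enzymes formed a further abundant group, 31 genes that were all at 1 FPKM or more in every library and held 1.42%, 1.67%, 1.16% and 1.182% of summed FPKM. Cyp3a11, a cytochrome P450 that oxidises many drugs, measured 933, 1463, 883 and 785 FPKM, and Cyp3a13 984, 952, 720.3 and 779 FPKM. The glutathione transferases Gsta1 and Gstm3 measured 1157, 1119.9, 513 and 577 FPKM and 477, 886, 601 and 575 FPKM. The carboxylesterase Ces2a averaged 653 ± 192 FPKM and Por, the electron donor of microsomal cytochromes, 516 ± 40.8 FPKM. Gsta1 was higher in replicates 1 and 2, while Cyp3a11, Gstm3 and Ces2a were highest in replicate 2.

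Cytosolic ribosomal protein genes held 3.62%, 5.14%, 5.41% and 4.95% of summed FPKM, and replicate 1 was the lowest library for 82 of 88 genes, against 32.0% of all genes at 5 FPKM or more. Rpl41 measured 903, 1268, 1424 and 1299 FPKM and Rps27 averaged 1019 ± 182 FPKM. Mitochondrially encoded proteins held 4.13%, 4.43%, 2.88% and 3.66%. Within this list mt-Co1 stood at 11001 ± 2074 FPKM, but mt-Co2, mt-Co3 and mt-Atp6, chosen after their values were seen, stood at 77.3 ± 5.73 FPKM, 16.9 ± 1.88 FPKM and 12.2 ± 2.06 FPKM. Ribosomal protein genes and mitochondrial genes have near-identical copies elsewhere in the nuclear genome, so the treatment of shared reads, which the labels do not state, can set these values. Heat shock genes were led by Hspa8 (609 ± 45.7 FPKM) and Hspa5 (331 ± 46.8 FPKM), immediate early genes by Fos (183 ± 24.4 FPKM) and Zfp36 (135 ± 4.94 FPKM), and clock genes by Nr1d1 (86.4 ± 5.95 FPKM) and Tef (75.8 ± 12.7 FPKM). None of these 3 lists held a gene at 5 FPKM or more with a CV over 50%.

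The spread between the vehicle mice was next measured gene by gene. The common biological coefficient of variation, the part of the spread beyond counting error as edgeR estimates it, was 18.2% over 13064 genes. The median CV of FPKM was 21.05% for genes between 1 and 5 FPKM, 12.6% between 5 and 20, 10.6% between 20 and 100, 9.87% between 100 and 500 and 10.4% at 500 or more. Above 20 FPKM, the median thus changed little with level. Between pairs of libraries, Pearson's r of log2(FPKM + 1) over these 8106 genes, which are not independent of each other, ran between 0.958 and 0.986. Replicates 2 and 3 differed by over 2-fold on this scale in 61 genes and replicates 1 and 4 in 207.

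A CV over 50% was found for 141 of the 8106 genes at 5 FPKM or more (1.74%). Over 3 libraries, it was found for 107 genes without replicate 1 and for 124 without replicate 4. Of the 141 genes, 48 were immunoglobulin or J chain genes, 16 pancreatic acinar genes, 16 Paneth list or alpha-defensin genes, 10 T cell and MHC class II genes, 8 adipocyte or fatty acid synthesis genes and 43 others. Each of the 16 acinar genes was highest in replicate 1, and each of the 16 Paneth list or defensin genes was lowest in replicate 1 and highest in replicate 3. Groups were set by list and gene name. The 43 others therefore include Ang4, and Gm15292 and Gm7861 from the stretch of chromosome 8 that holds the alpha-defensins. These genes too were lowest in replicate 1 and highest in replicate 3. All 10 T cell and MHC class II genes were lowest in replicate 4, and 9 were highest in replicate 3, the exception being the receptor segment Tcrg-V7 at 14.7, 5.02, 10.6 and 1.04 FPKM. All 8 adipocyte and fatty acid synthesis genes were highest in replicate 4 and lowest in replicate 1. Of the immunoglobulin and J chain genes, 28 were highest in replicate 1. Since these groups were formed from the genes that passed the limit, the counts describe them and do not test them.

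**Figure D4:**
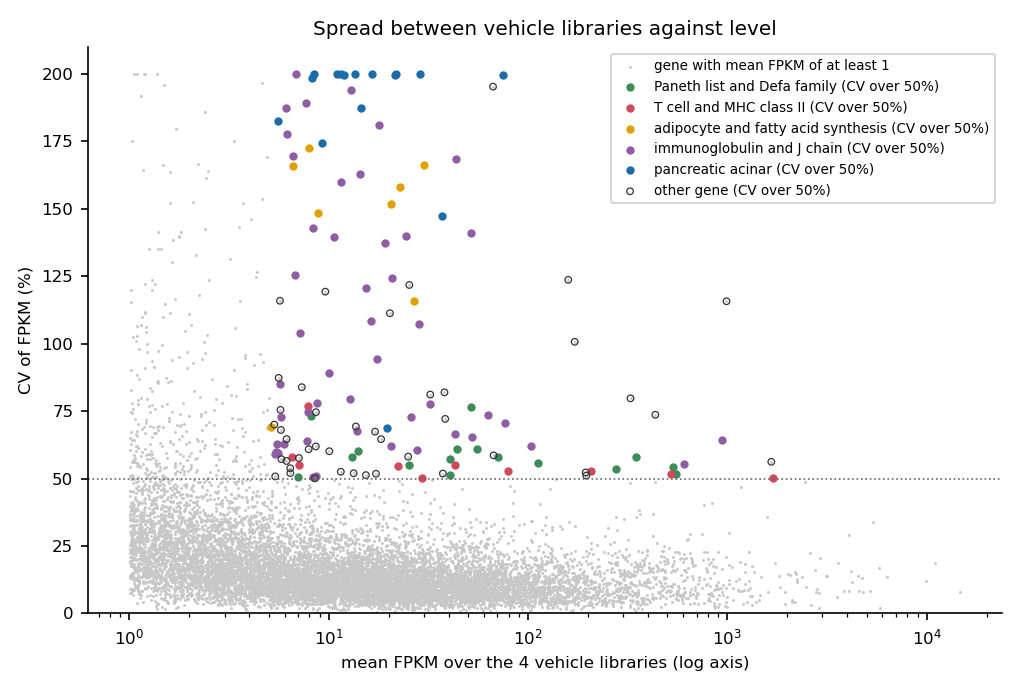
CV of FPKM over the 4 vehicle libraries against mean FPKM (log axis) for 11946 genes at a mean of 1 FPKM or more; coloured points are genes at 5 FPKM or more with a CV over 50% (dotted line) in 5 groups, and open circles are other such genes. The median CV was 10.6% between 20 and 100 FPKM, and 141 genes at 5 FPKM or more lay above the line.

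The 15 genes of highest CV were 11 pancreatic acinar genes, 3 immunoglobulin segments and 1 pseudogene. Of the acinar genes, 5 had a count in replicate 1 only. They were the carboxypeptidase Cpb1 (45.8 FPKM there), the elastase Cela3b (54.2 FPKM), the trypsins Try4 (65.6 FPKM) and Try5 (44.1 FPKM), and 2210010C04Rik (33.7 FPKM). Pnlip, Cela2a, Cpa1, Prss2, Ctrb1 and Cel followed, Cel being the bile salt-dependent lipase at 32.9, 0.0812, 0.0500 and 0.0419 FPKM and Cpa1 the carboxypeptidase A1 at 47.6, 0.0459, 0 and 0 FPKM. Gm28661, annotated as an unprocessed pseudogene in GENCODE M21, measured 262, 0.775, 2.00 and 1.92 FPKM. The labels do not state how reads shared with near-identical copies were treated, so its values are uncertain. The immunoglobulin segments were Ighv7-4 (27.4, 0, 0 and 0 FPKM), Igkv4-86 (50.9, 0, 0.543 and 0.607 FPKM) and Ighv5-9-1 (1.10, 0.138, 0 and 29.5 FPKM), each carried by a single library, the first 2 by replicate 1 and the last by replicate 4.

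Outside these groups, the following variable genes were chosen after their values were seen. The metallothioneins Mt1 and Mt2, which bind zinc and copper, measured 151, 823, 571 and 195 FPKM and 28.7, 396, 218 and 43.1 FPKM, high in replicates 2 and 3. Pck1, the enzyme that commits oxaloacetate to glucose or glycerol synthesis, measured 169, 163, 264 and 711 FPKM, and Angptl4, an inhibitor of lipoprotein lipase, 24.9, 12.6, 20.8 and 70.8 FPKM. The kinase Sgk1 measured 247, 134, 92.8 and 309.9 FPKM. All 3 were highest in replicate 4, the library with adipocyte transcripts, whose part in these values was not tested. Enpp7, the intestinal alkaline sphingomyelinase, measured 71.4, 156, 300.4 and 251 FPKM and so was lowest in the library in which Akp3 was highest. The monocarboxylate transporter Slc16a9 measured 10.97, 8.46, 2.19 and 0.792 FPKM and Cyp2c29 47.7, 77.9, 14.4 and 12.1 FPKM, both higher in replicates 1 and 2.

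**Figure D5:**
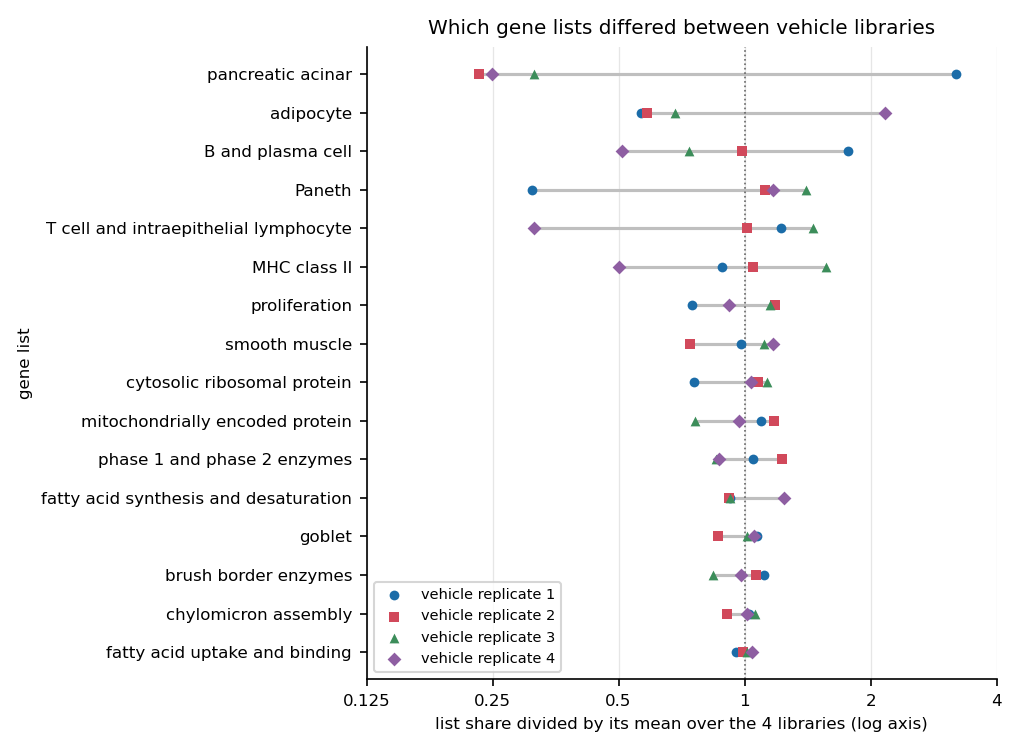
Share of 16 gene lists in each vehicle library divided by the mean share over the 4 libraries, on a log axis; each symbol is 1 library and the dotted line marks the mean. The acinar list reached 3.20 times its mean in replicate 1 and the adipocyte list 2.17 times in replicate 4, while the Paneth list was at 0.310 times in replicate 1 and the T cell list at 0.313 times in replicate 4.

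At the other end, the 10 genes of lowest CV at a mean of 50 FPKM or more kept within a narrow band in all 4 mice. They were picked for their low CV in these same libraries, so the values describe these mice and do not show that the genes are steady in others. Rab11b, a GTPase of recycling endosomes, measured 64.6, 65.0, 64.5 and 63.8 FPKM, a CV of 0.800%. Citrate synthase (Cs) measured 348, 351, 350.2 and 344 FPKM, a CV of 0.896%. The others were the histidine methyltransferase Setd3, the mitochondrial inner membrane protein Chchd3, Rab11a, Epb41l4b, the glutaminyl-tRNA synthetase Qars, the damage-binding protein Ddb1, the G protein subunit Gng5 and ladinin (Lad1), with CVs between 0.947% and 1.55%. Hnf4a and Rbp2 were close to this band at 2.10% and 2.03%.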

How the data were processed

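Polyadenylated RNA of mouse duodenum was sequenced from randomly primed cDNA, per the labels' protocols. The submitters' processing notes name Bowtie2 2.2.3, TopHat2 2.0.12, HTSeq 0.6.1 and DESeq 1.18.0 without roles. Genome build, annotation, use of strand and treatment of shared reads were not given in the sources used here. Per the file headers, the deposited table holds the authors' read counts and FPKM per gene, and a gene length column (other unit). Only the 4 vehicle libraries were used.

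Of 47069 genes, 46574 had an identifier in GENCODE M21 (GRCm38) and 39808 exactly its coordinates. Names were lacking for 24541 genes, and 24237 of these were taken from M21. In all 10171 genes checked, the deposited FPKM implied 1 length per gene over the libraries (0.1% tolerance). That length was within 1% of the gene's mean transcript length in M21 for 68.6% of 10884 genes, while the listed length was 1.62 times longer at the median. Deposited FPKM is therefore the main level, and FPKM recomputed with the listed length an alternative.

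Genes were ranked by mean FPKM with no filter. Shares are percentages of the summed FPKM of a library. Counts of list genes highest or lowest in a library include genes below 5 FPKM, which the share over all genes beside them leaves out. The 46 lists had 890 entries, of which 882 were matched by symbol. The members and lists were chosen with earlier results of these data known. Named by rule were the 20 genes of highest mean FPKM, the 5 markers, up to 6 genes of highest mean per list and its defining members without counts, the 15 genes of highest CV at 5 FPKM or more and the 10 of lowest CV at 50 FPKM or more. All further genes, among them cell type markers such as Lgr5, Dclk1, S100b and Adgre1, were chosen with their values known, whether or not this is said beside them. The common biological coefficient of variation came from edgeR 4.0.16 (TMM, filterByExpr, intercept only) in R 4.3.3, tested on simulated data, with DESeq2 1.42.0 as an alternative. Other steps used Python 3.11.15. No test between groups was made, since there is 1 group. The series description counts 7 mice for 7 libraries, so the spread is between mice and includes technical spread. Limits from a count of 0 cover counting error only. Promoter sequences are from RefSeq (GRCm38.p6). Some genes that this rule names are not reported here.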

Additional observations from a re-analysis of the deposited data

Results flagged for a closer look

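Of 301 sets of 4 values (genes named and gene lists), 45 had 1 library far from the other 3, its gap to the nearest being above Dixon's limit as a part of the whole range. Chance alone sets apart about 1 in 20 sets. Many of these genes were named because their libraries differed, and genes of 1 list move together, so the 45 cannot be read against that share. Replicate 1 stood apart in 22 sets, replicate 2 in 5, replicate 3 in 2 and replicate 4 in 16.

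Replicate 1 was far above the others for pancreatic enzymes, whose list held 0.180% of summed FPKM there. Its values were 298 FPKM for Ctrb1, 114 FPKM for Cela2a, 87.3 FPKM for Pnlip, 85.6 FPKM for Prss2, 65.6 FPKM for Try4 and 54.2 FPKM for Cela3b. Further acinar genes stood at 47.6 FPKM (Cpa1), 45.8 FPKM (Cpb1), 44.1 FPKM (Try5), 33.7 FPKM (2210010C04Rik) and 32.9 FPKM (Cel). It was also far above the others for some genes of calcium and iron uptake, with 452 FPKM for S100g, 71.1 FPKM for Slc40a1 and 1.67 FPKM for Trpv6. Of the 18 genes in the list of iron, calcium and vitamin uptake, 9 were highest in replicate 1, against 26.1% of all genes at 5 FPKM or more. As given above, the iron importer Slc11a2 was not highest there. The mucus protease Clca1 reached 731 FPKM in this library, the trefoil peptide Tff2 5.86 FPKM, the B cell receptor gene Cd79a 3.14 FPKM and the pseudogene Gm28661 262 FPKM. The immunoglobulin segments Ighv7-4 and Igkv4-86 reached 27.4 FPKM and 50.9 FPKM. The stem cell factor Ascl2 was far below the other libraries in replicate 1, at 0.785 FPKM.

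Replicate 4 was far above the others for fat cell genes, whose list held 0.0386% of summed FPKM there. Cfd reached 77.0 FPKM, Car3 67.3 FPKM, Adipoq 28.5 FPKM, Fabp4 28.4 FPKM and Plin1 17.3 FPKM. The lipogenic enzymes Scd1 and Fasn reached 105 FPKM and 72.6 FPKM in the same library, and the list of fatty acid synthesis and desaturation 0.162%. The list of triglyceride resynthesis stood at 0.603% and that of hepatocyte genes at 0.00274%, with Cyp2e1 at 9.48 FPKM and Hp at 5.11 FPKM. Single genes set apart in this library were Vil1 at 2746 FPKM, Pou2f3 at 0.986 FPKM and Ighv5-9-1 at 29.5 FPKM.

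Replicate 2 was highest for Ccl20 (26.8 FPKM), Lgr5 (1.80 FPKM) and Fabp6 (0.992 FPKM) and lowest for Tff3 (1840.1 FPKM) and Nr1h2 (92.1 FPKM). Replicate 3 was lowest for Plvap (2.42 FPKM) and mt-Co2 (68.8 FPKM).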

How the results depend on the processing

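No paired analysis was possible because only 1 group was used. With 4 mice, no group to set them against, and no label that gives the part of the duodenum taken or a batch, spread between mice cannot be told apart from spread between dissections. With FPKM from counts and the listed length, the top 10 genes held 13.1% of the sum, the top 100 genes 36.7%, absorptive genes 9.13%, lipid genes 8.36% and secretory genes 2.49%. With mitochondrial genes left out, the same shares were 9.31% (top 10), 30.8% (top 100), 9.13% (absorptive) and 7.67% (lipid). As shares of counts they were 7.69%, 27.1%, 9.87% and 6.38%, with secretory genes at 1.25% and wall genes at 0.345%. A CV over 50% was found for 476 genes when genes from a mean of 1 FPKM were counted, against 141 from 5 FPKM. The common biological coefficient of variation was 22.5% with no filter beyond 1 count and 11.8% as the median of gene-wise DESeq2 estimates. Leaving out 1 mouse at a time, genes at 1 FPKM or more numbered 11860 to 11965, and genes with a CV over 50% 107 to 183. The biological coefficient of variation ran from 16.8% to 20.1%, the top 10 share from 9.76% to 10.3%, the top 100 share from 32.4% to 32.7% and the absorptive share from 8.67% to 8.90%. The lipid share ran from 7.28% to 7.49%, the secretory from 1.89% to 2.10%, the wall from 0.237% to 0.274% and the immune from 0.835% to 1.05%. With the listed length, an alternative added for single genes after seeing the data, 107 of 242 genes named moved by more than 1 SD, and 16 of the top 20 and 80 of the top 100 genes were the same.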
